A study of Mus musculus with 24 samples.

Results

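Total RNA of NIH/3T3 cells was compared between 3 libraries from cells given halofuginone and 3 from cells given vehicle, which are 6 of the 24 libraries of the study. They were taken by their labels as total RNA and by the column headers of the deposited count table. The halofuginone cells received the drug for 24 h at 37 °C, at 100 nM by the labels, and the vehicle cells received PBS for the same time. NIH/3T3 is an established line of immortalised mouse embryonic fibroblasts, and both groups grew in medium with 10% bovine calf serum. The header of 1 halofuginone library carries a date and names 50 nM, and the header of 1 vehicle library carries the same date. These form the date-tagged pair, and the others are called rep2 and rep3 after their headers. The doses differ between header and label, and which of them the date-tagged cells received is not settled here. The study's other 18 libraries come from pooled fractions of polysome gradients and were not used.

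Halofuginone occupies the active site at which glutamyl-prolyl-tRNA synthetase, encoded by Eprs, joins proline to its tRNA. Uncharged tRNA is known to activate the kinase Gcn2, which phosphorylates the initiation factor eIF2alpha, slows most translation and favours translation of the transcription factor Atf4. Atf4 in turn binds composite C/EBP-ATF elements in genes for amino acid uptake, amino acid synthesis and tRNA charging. In fibroblasts the drug is known for lowering collagen, a protein rich in proline.

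The libraries held 22019630, 22879826 and 24970047 counts with halofuginone and 18170576, 23181028 and 17517995 in vehicle, in the order date-tagged, rep2 and rep3, which is kept below. Mitochondrially encoded RNAs took 2.23% to 3.42% of counts with halofuginone and 2.42% to 4.17% in vehicle. All 8 fibroblast markers checked, from Col1a1 to Pdgfra, averaged at least 5 CPM (TMM-scaled counts per megacount) in both groups. Their summed level was 14215 to 17581 CPM with halofuginone and 17073 to 19303 CPM in vehicle. Its largest part was Fn1, the fibronectin gene and the 1 marker of the 8 that was called higher in rep2 with rep3. The other 7 were called lower there. Among them the growth factor receptor Pdgfra stood at 264, 71 and 71.7 CPM with halofuginone, against 329, 459.7 and 446 CPM in vehicle, and S100a4 stood at 473, 78.9 and 69.9 CPM with halofuginone, against 487, 428 and 443 CPM in vehicle. The tumour suppressor gene Cdkn2a, which NIH/3T3 cells are known to lack, had 0 counts in all 6 libraries, where 3 counts would be 0.124 to 0.165 CPM. Of markers of other cells, 0 of 5 epithelial, 0 of 6 leukocyte and 0 of 5 skeletal muscle genes reached 5 CPM in either group, and Epcam, Cldn4, Myod1 and Myog were at 0 counts. The summed leukocyte markers were at 1.09 to 4.71 CPM with halofuginone and 3.99 to 6.64 CPM in vehicle. The endothelial markers summed to 26.3 to 85.8 CPM with halofuginone and 10.5 to 17.1 CPM in vehicle. That sum was nearly all Vwf, the von Willebrand factor gene, with 25.9, 81.1 and 84.9 CPM against 9.71, 16.1 and 16.6 CPM, while Pecam1 and Cdh5 stayed at 4 counts or fewer in each library. The neural markers summed to 5.98 to 37.5 CPM with halofuginone and 2.74 to 6.54 CPM in vehicle, through the microtubule gene Map2, with Rbfox3 at 0 counts. The adipocyte markers summed to 89.3 to 168 CPM with halofuginone and 134 to 282 CPM in vehicle, nearly all Lpl.

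The date-tagged halofuginone library stood apart from the other halofuginone libraries and close to vehicle. It differed from halofuginone rep2 by 2-fold or more at 4577 genes and from rep3 at 4721, of 13020 genes tested over all 6 libraries. It differed from its own vehicle library at 391 genes. Vehicle libraries differed among themselves at 236 to 835 genes. The halofuginone rep2 and rep3 libraries differed from each other at 143 genes, and from the vehicle library of their own tag at 3604 and 4012. These 2 libraries were also the closest by counts, with a mean chi-square of 3.17 per gene, where the next lowest pair, vehicle rep2 and rep3, had 21.3 and the date-tagged pair 24.8. The first principal component held 82.6% of the variance and set halofuginone rep2 and rep3 on one side and the other 4 libraries on the other. The second, with 11.01%, ran from the date-tagged halofuginone library through date-tagged vehicle to vehicle rep2. The study's text speaks of biological triplicates, but no header ties a library to a culture, so p-values measure the spread between these libraries, which may be technical.

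**Figure D1:**
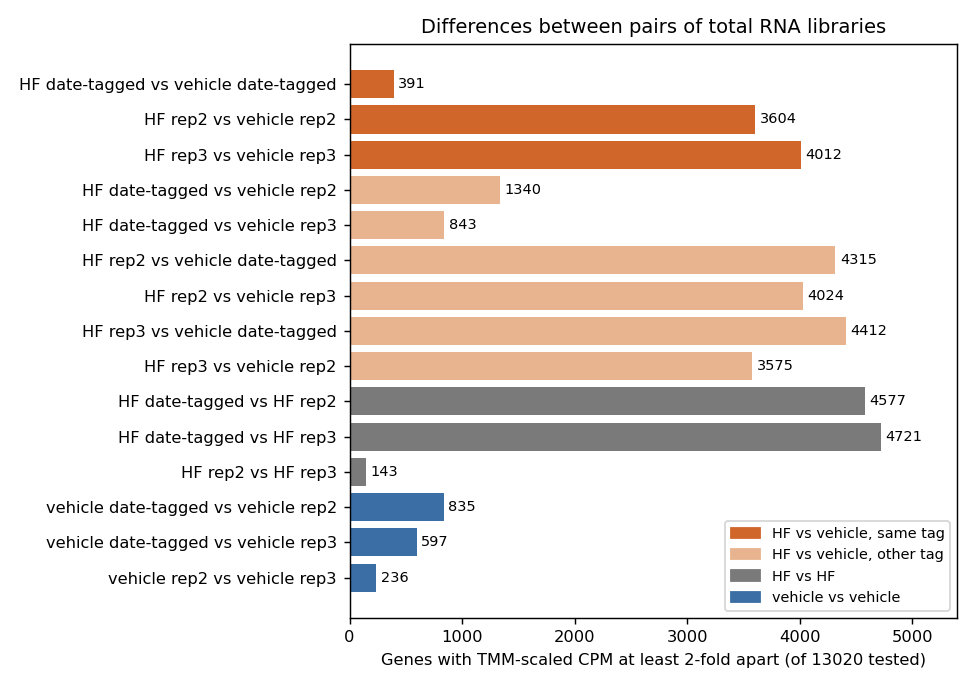
Number of genes at least 2-fold apart (x axis, of 13020) for each of the 15 pairs of total RNA libraries (y axis), with halofuginone (HF) against vehicle on top, then HF against HF, then vehicle against vehicle. Bars that join the date-tagged HF library to vehicle are short (391 to 1340 genes), bars that join HF rep2 or rep3 to any library other than each other are long (3575 to 4721), and the bar that joins those 2 is the shortest (143).

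Because of this split, the halofuginone effect was read in 3 ways. Over all 6 libraries (3 against 3), the edgeR quasi-likelihood test passed 0 of 13020 genes (0.0%) at a threshold of 0.05 after Benjamini-Hochberg adjustment, and the smallest adjusted p was 0.267. At an unadjusted p under 0.05, edgeR gave 2292 genes, 1455 of them higher with halofuginone (11.2%) and 837 lower (6.43%). DESeq2 called 515, of which 296 were higher and 219 lower. Without the date-tagged halofuginone library edgeR called 8246 genes. In rep2 with rep3 (2 against 2), edgeR called 9337 of 13334 genes (70.0%), 4419 higher (33.1%) and 4918 lower (36.9%). The words rose and fell below refer to these calls in rep2 with rep3, and log2 fold changes are from that fit unless the date-tagged pair is named. The date-tagged pair has 1 library per treatment and thus no test of its own. In that pair 223 genes were at least 2-fold higher with halofuginone (1.71%) and 168 at least 2-fold lower (1.29%). With a prior count of 10 these were 80 and 51 genes, and with a filter at 5 CPM 22 and 27. Scaling was to library totals adjusted by TMM factors, so all changes are relative to the other polyadenylated RNAs of a library.

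The halofuginone effect differed between the date-tagged pair and rep2 with rep3 at 6781 of 13020 genes (52.1%; edgeR, interaction of treatment and set, adjusted p under 0.05). The effect was above that of rep2 with rep3 at 3604 genes (27.7%) and below it at 3177 (24.4%). The spread in this test comes from rep2 and rep3 alone, and the date-tagged libraries were assumed to vary likewise. Dose as named in the header, date and set run together here and cannot be told apart. Across genes, the log2 ratios of the rep2 and rep3 pairs correlated at Pearson's r = 0.94. The date-tagged ratios correlated with those of rep2 at 0.18 and of rep3 at 0.11, as a description across genes that are not independent. Of the genes called higher in rep2 with rep3, 2005 of 4219 (47.5%) had a ratio above 0 in the date-tagged pair, where 48.6% of all tested genes did. The share was larger among genes with large changes. Of those with a log2 fold change of 4 or more, 22 of 24 (91.7%) were also higher in the date-tagged pair, and at 2 to 4 the count was 117 of 182 (64.3%). Of the genes called lower, 150 of 230 (65.2%) with a change of 4 or more, and 440 of 733 (60.0%) at 2 to 4, were also lower there.

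**Figure D2:**
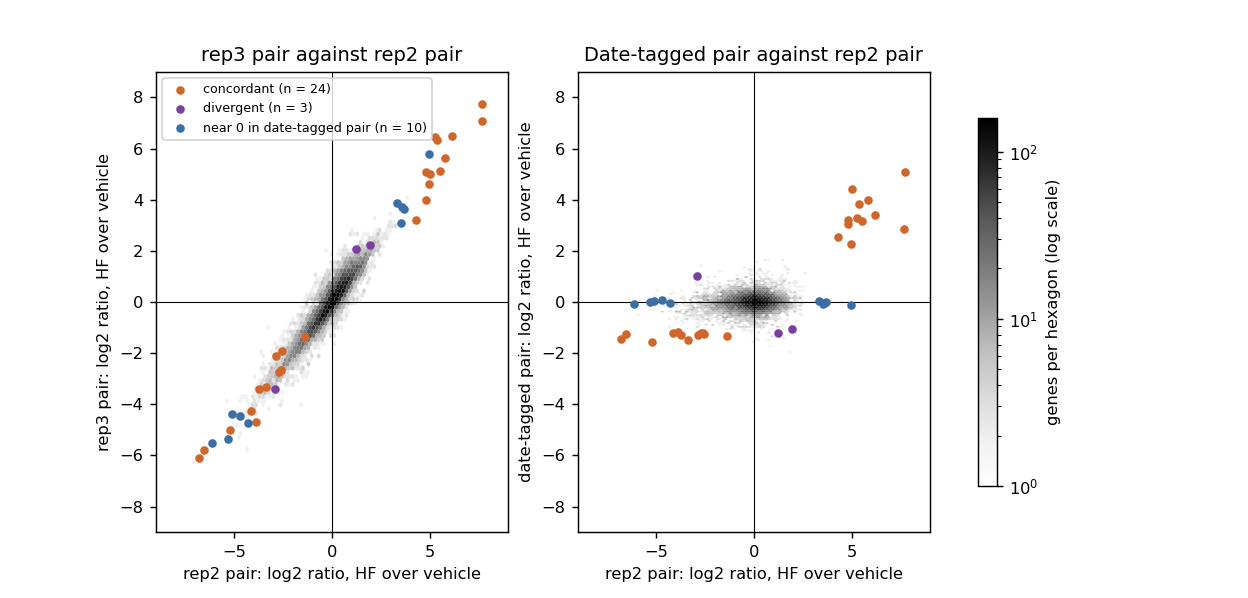
Log2 ratios of halofuginone over vehicle per gene (13020 genes, grey hexagons on a log colour scale), rep3 pair against rep2 pair on the left and date-tagged pair against rep2 pair on the right, with named genes in colour. On the left genes lie along the diagonal (Pearson's r = 0.94), and on the right most lie in a flat band near 0 on the date-tagged axis (r = 0.18), with a small number of genes far out in the direction they have in rep2.

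Of all 223 genes at least 2-fold higher in the date-tagged pair, 92 (41.3%) were called higher in rep2 with rep3 and 44 lower, where 32.4% of the 13020 genes were called higher. Of the 168 at least 2-fold lower, 66 (39.3%) were called lower and 34 higher, where 37.3% of the genes were called lower. The shares were larger among genes with a mean of 5 CPM or more over both date-tagged libraries, a limit chosen after the data were seen that uses neither rep2 nor rep3. There 15 of 18 genes at least 2-fold higher (83.3%) were called higher in rep2 with rep3, where 35.1% of the 10185 genes at that level were. Of 23 genes at least 2-fold lower 21 (91.3%) were called lower, where 38.9% at that level were. With a mean of 5 CPM or more in a group, 33 genes on the higher side and 17 on the lower were past 2-fold in all 3 pairs, called in rep2 with rep3 and without overlap of the groups. That is beside 10451 genes tested over all 6 libraries at that level. Predicted genes, Riken clones and pseudogenes were left out of the 33 and 17. Over all genes tested the halofuginone libraries were all above vehicle at 1585 (12.2%) and all below it at 1512 (11.6%).

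The genes that were higher with halofuginone by the most in all 3 pairs include several that are known mainly from other tissues. Car6, a secreted carbonic anhydrase of saliva (chromosome 4, 150187015 to 150201332 in GRCm38, the build of all coordinates), stood at 14.3, 197 and 184 CPM with halofuginone, against 0.329, 0.85 and 0.765 CPM in vehicle. Cdsn, the corneodesmosin gene of cornified skin (chromosome 17, 35552128 to 35557180), stood at 142, 501 and 479 CPM with halofuginone, against 15.5, 10.9 and 13.8 CPM in vehicle. In both genes the date-tagged halofuginone library was the lowest of the 3. Every halofuginone library was above every vehicle library, which the choice of these genes required. The log2 fold change was 7.82 ± 0.12 (SE) for Car6 (adjusted p = 1.05e-07, edgeR), with 5.09 in the date-tagged pair. For Cdsn it was 5.28 ± 0.12 (adjusted p = 1.27e-07, edgeR), with 3.18 in the date-tagged pair. Over all 6 libraries Cdsn had an unadjusted edgeR p of 9.00e-05 and Car6 of 0.0005, both with an adjusted p of 0.267.

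Cox6a2, the muscle form of a cytochrome c oxidase subunit (chromosome 7, 128205435 to 128206387), stood at 5.39, 20.9 and 18.9 CPM with halofuginone, against 0.165, 0.552 and 0.492 CPM in vehicle. Its log2 fold change was 5.18 ± 0.19 (adjusted p = 4.76e-07, edgeR), and the difference of the effect between the sets was -0.24 ± 0.84 (SE; edgeR adjusted p = 0.861), so the 2 sets were not told apart for this gene. Avil, which encodes the actin-severing protein advillin (chromosome 10, 127000709 to 127020994), stood at 8.02, 14.7 and 15.3 CPM with halofuginone, against 0.878, 0.425 and 0.875 CPM in vehicle. Its change was 4.53 ± 0.24 (adjusted p = 2.48e-06, edgeR), against 3.06 in the date-tagged pair. Soat2, an enzyme that esterifies cholesterol (chromosome 15, 102150526 to 102163469), stood at 0.77, 13.3 and 14.3 CPM with halofuginone, against 0, 0.382 and 0.328 CPM in vehicle. Atp2a3, a calcium pump of the endoplasmic reticulum, stood at 1.4, 14.7 and 15.4 CPM with halofuginone, against 0, 0.17 and 0.219 CPM in vehicle. The glycogen-binding gene Stbd1 had 0.815, 13.5 and 12.9 CPM with halofuginone, against 0, 0.255 and 0.0547 CPM in vehicle. Each of these 3 genes had 0 counts in the date-tagged vehicle library, so no fold is given for that pair. In rep2 with rep3 their log2 fold changes were 5.20 ± 0.21, 6.21 ± 0.23 and 6.21 ± 0.30 (edgeR adjusted p of 1.78e-06 or below).

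Of the other genes on the higher side, Trim66, a chromatin reader, had a log2 fold change of 5.09 ± 0.22 and Gdap1l1 of 3.85 ± 0.27 (edgeR adjusted p = 1.04e-06 and 1.06e-05). Their date-tagged log2 ratios were 2.25 and 2.55. Als2cl, Taf7l and Sspo had 3 counts or fewer over vehicle rep2 and rep3 together, so only levels are given. Als2cl stood at 0.589, 18.8 and 20 CPM with halofuginone, against 0, 0 and 0.0547 CPM in vehicle. Taf7l, a relative of a general transcription factor subunit that is known from testis, stood at 2.04, 7.29 and 7.5 CPM with halofuginone, against 0.0549, 0.0849 and 0 CPM in vehicle. Sspo, the SCO-spondin gene, had 0.906, 12.8 and 13.2 CPM with halofuginone, against 0, 0.0849 and 0.0547 CPM in vehicle. All 3 were near 0 in vehicle and lowest in the date-tagged library among those with halofuginone.

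**Figure D3:**
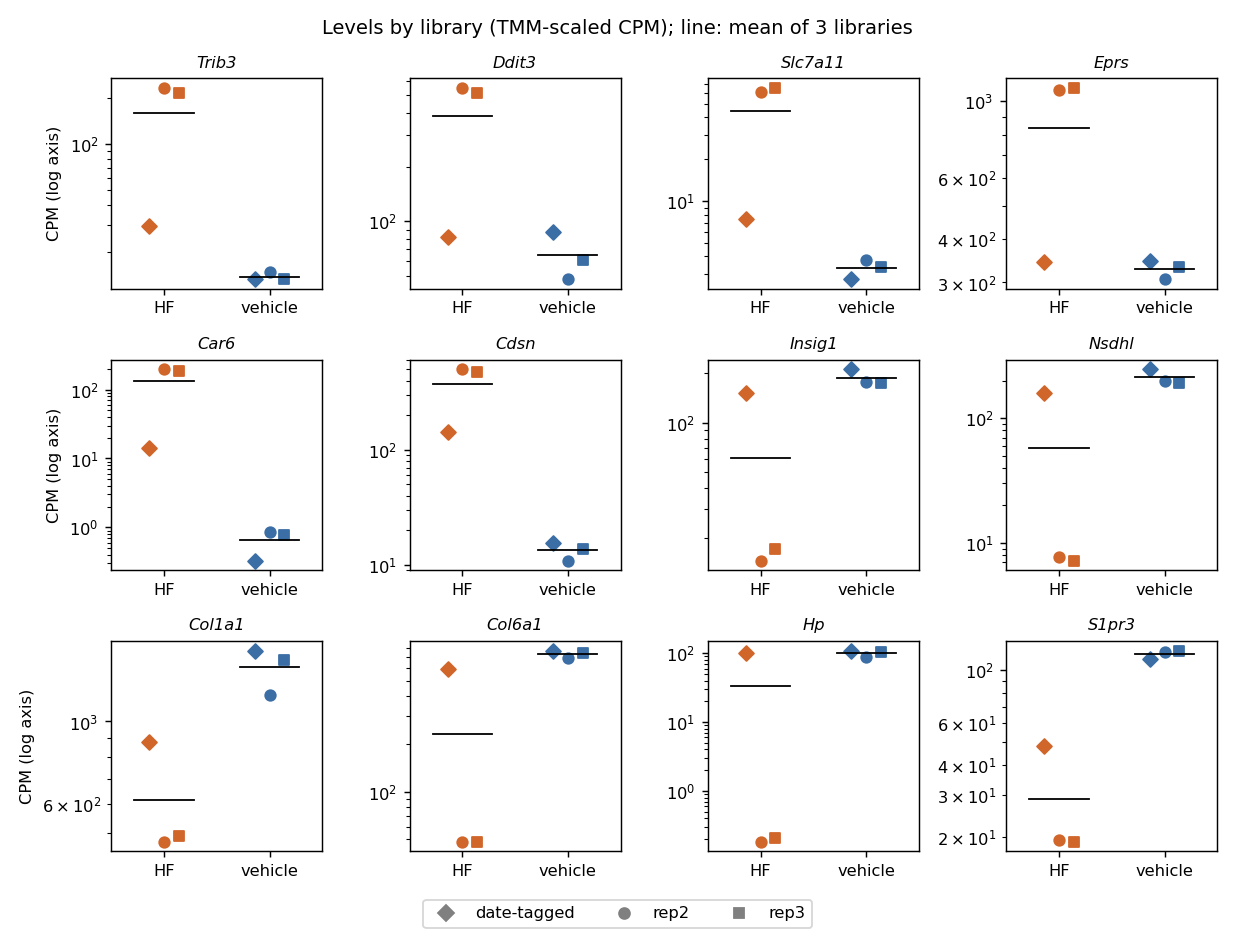
Levels of 12 genes (TMM-scaled CPM, log axes that differ between panels) in the 3 halofuginone (HF) and the 3 vehicle libraries, with the date-tagged library as a diamond, rep2 as a circle, rep3 as a square and the group mean as a line. In Car6, Cdsn, Trib3, Slc7a11, Col1a1 and S1pr3 the date-tagged HF library lies between the other HF libraries and vehicle, and in Eprs, Ddit3 and Hp it lies with vehicle.

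Next come the genes that were lower by the most in all 3 pairs. S1pr3, a receptor for sphingosine-1-phosphate (chromosome 13, 51408639 to 51422797), stood at 47.8, 19.4 and 19 CPM with halofuginone, against 111, 119 and 121 CPM in vehicle. Its log2 fold change was -2.69 ± 0.077 (adjusted p = 2.07e-07, edgeR), against -1.21 in the date-tagged pair. Angpt1, a ligand of the receptor Tek (chromosome 15, 42424723 to 42676977), had 8.74, 0.181 and 0.247 CPM with halofuginone, against 24.3, 30.5 and 23.1 CPM in vehicle. It fell by 6.97 ± 0.28 on the log2 scale (adjusted p = 6.94e-07, edgeR). Svep1, an extracellular adhesion protein (chromosome 4, 58042442 to 58206859), had 91.6, 46.2 and 51.7 CPM with halofuginone, against 229, 119.6 and 134 CPM in vehicle. For Svep1 the change in rep2 with rep3, -1.42 ± 0.093, and the date-tagged ratio, -1.32, were close, and their difference was 0.051 ± 0.15 (SE; edgeR adjusted p = 0.802). For these 3 genes too, lack of overlap between the groups was part of how they were chosen.

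Aldh1a7, an aldehyde dehydrogenase gene that is a close paralog of Aldh1a1 and so less certain, stood at 7.29, 0.181 and 0.206 CPM with halofuginone, against 21.8, 10.1 and 9.62 CPM in vehicle. Col12a1, a fibril-associated collagen chain (chromosome 9, 79598991 to 79718831), stood at 24.9, 3.22 and 3.42 CPM with halofuginone, against 69.5, 33.9 and 34.9 CPM in vehicle, and fell by 3.42 ± 0.12 (log2; edgeR adjusted p = 3.86e-07). Cemip, which takes part in breaking down hyaluronan (chromosome 7, 83932857 to 84086502), had 125, 23.9 and 25.7 CPM with halofuginone, against 289, 159 and 174 CPM in vehicle, a log2 fold change of -2.79 ± 0.088 (adjusted p = 2.82e-07, edgeR). In Cemip, Col12a1 and Aldh1a7 the date-tagged vehicle library was higher than the other vehicle libraries. No halofuginone library reached the lowest vehicle value, as the choice of these genes required. Fabp4, the fatty acid carrier of adipocytes, had 5.39, 0.679 and 0.825 CPM with halofuginone, against 13.2, 10.2 and 9.62 CPM in vehicle. Adipoq and Cidec, which define adipocytes, had 1 count or fewer in each library. The other genes of this group, Kng2, Ccdc85a, Col5a3 and Cfap100, had date-tagged log2 ratios of -1.21, -1.27, -1.25 and -1.18. In rep2 with rep3 they had log2 fold changes of -4.74, -2.65, -2.31 and -4.59 (edgeR adjusted p of 7.38e-05 or below). Cd33, a sialic acid-binding lectin, had 2.67, 0 and 0.0412 CPM with halofuginone, against 6.47, 8.71 and 7.27 CPM in vehicle, with 1 count over halofuginone rep2 and rep3 and therefore no fold.

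Other genes changed in rep2 and rep3, while their date-tagged halofuginone library was near date-tagged vehicle. A log2 ratio within 0.1 of 0 in the date-tagged pair was found for 1039 genes called higher and 920 called lower in rep2 with rep3, with a mean of 5 CPM or more in a group and a called difference between the sets. Predicted genes, Riken clones and pseudogenes were left out of these counts. At that level 10451 genes were tested, with 3770 called higher and 3985 lower. The median absolute log2 ratio of the date-tagged pair over all tested genes was 0.175, so ratios near 0 were common there. How many of all genes lay within 0.1 was not counted, so whether the counts above exceed the share of all genes is not known. Npr3, the clearance receptor for natriuretic peptides, stood at 1.22, 21.4 and 20.1 CPM with halofuginone, against 1.32, 0.595 and 0.273 CPM in vehicle. Rab39b, a small GTPase, stood at 2.72, 56.8 and 54.2 CPM with halofuginone, against 2.63, 5.56 and 3.66 CPM in vehicle. Myom2, a protein of the muscle M-band, had 1.59, 9.37 and 9.98 CPM with halofuginone, against 1.59, 0.637 and 0.711 CPM in vehicle. In each of them halofuginone rep2 and rep3 were above all 4 other libraries. Their log2 fold changes were 5.45 ± 0.23, 3.52 ± 0.16 and 3.80 ± 0.20 (edgeR adjusted p of 2.58e-06 or below). On the lower side, Olfm1, a secreted olfactomedin protein, had 114, 2.85 and 2.89 CPM with halofuginone, against 115, 116 and 122 CPM in vehicle. Cck, which encodes the peptide hormone cholecystokinin, had 136, 7.61 and 5.61 CPM with halofuginone, against 139.7, 153 and 151 CPM in vehicle. Both were low in halofuginone rep2 and rep3 alone, at log2 fold changes of -5.42 ± 0.10 and -4.57 ± 0.13 (edgeR adjusted p of 2.07e-07 or below). Fyb, Enpp3 and Uba7, the activating enzyme for the ubiquitin-like protein Isg15, had log2 fold changes of -6.22, -4.78 and -5.26 (edgeR adjusted p of 5.52e-06 or below), with date-tagged ratios of -0.063, 0.10 and 0.037. Date-tagged halofuginone had 6.61 CPM for Fyb, below vehicle rep2 and rep3 at 16.1 and 19.1 CPM. For Enpp3 it had 10.9 CPM, below vehicle rep2 and rep3 at 22.5 and 19.1 CPM.

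Of the genes with a date-tagged change of 2-fold or more, 43 of those that were higher and 25 of those that were lower had a called change of 2-fold or more the other way in rep2 with rep3. At a mean of 5 CPM or more in a group, 3 genes met a stricter condition. Their rep2 and rep3 pairs were both past 2-fold the other way, with a called difference between the sets. Predicted genes, Riken clones and pseudogenes were left out. Ngef, which encodes a guanine nucleotide exchange factor for small GTPases (chromosome 1, 87476834 to 87573870), stood at 40.3, 3.22 and 2.6 CPM with halofuginone, against 19.7, 25.1 and 28.3 CPM in vehicle. The date-tagged halofuginone library was the highest of the 6 and the other halofuginone libraries were the lowest. The difference of the effect between the sets was 4.23 ± 0.22 (SE; edgeR adjusted p = 1.12e-05). Ifrd1, a transcriptional co-regulator (chromosome 12, 40201567 to 40248504), had 51.8, 439.5 and 431 CPM with halofuginone, against 108, 115 and 92.3 CPM in vehicle, and the difference was -3.13 ± 0.19 (SE; edgeR adjusted p = 1.91e-05). Kbtbd8, an adaptor of cullin ubiquitin ligases, had 1.09, 9.87 and 8.78 CPM with halofuginone, against 2.63, 4.12 and 2.02 CPM in vehicle, and the difference was -2.84 ± 0.61 (SE; edgeR adjusted p = 0.00589). In Ifrd1 and Kbtbd8 the date-tagged halofuginone library was the lowest of the 6 and the other halofuginone libraries were the highest.

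Genes of the amino acid response are described next, beginning with their promoters. The composite C/EBP-ATF element was searched as TGATGCAA on both strands in RefSeq promoters of GRCm38.p6, from 250 bases before to 50 after the annotated start. It was found in 13 of 45 genes (28.9%) of the amino acid response lists that rose and have a promoter entry. It stood in 294 of 32851 promoter entries (0.895%), in 68 of 9542 tested genes (0.713%), in 32 of 3233 genes called higher (0.99%) and in 22 of 3655 called lower (0.602%). The lists hold genes that are known in part through this element, and a match is no proof of a site. With 1 position free (TGATGNAA) it was found in 16 of the 45 (35.6%) and in 254 of the tested genes (2.66%). The sterol regulatory element, searched in the same windows and also with 1 position free, was in 0 of 31 fallen genes of the sterol and fatty acid lists in either form, where 6 (0.0629%) and 21 (0.22%) of the 9542 tested genes held it, which says only that its letters are not in these windows. The windows below show where the letters lie in 9 of these genes and, in the relaxed form, in Asns, with matches on either strand in capitals and each sequence read in the direction of its gene.
Slc7a11: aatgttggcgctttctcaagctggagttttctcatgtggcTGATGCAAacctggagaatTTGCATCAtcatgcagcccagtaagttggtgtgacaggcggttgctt
Chac1: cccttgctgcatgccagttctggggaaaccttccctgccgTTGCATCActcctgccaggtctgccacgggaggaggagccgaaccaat
Atf3: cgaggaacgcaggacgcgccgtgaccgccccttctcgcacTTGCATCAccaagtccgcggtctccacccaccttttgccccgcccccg
Vldlr: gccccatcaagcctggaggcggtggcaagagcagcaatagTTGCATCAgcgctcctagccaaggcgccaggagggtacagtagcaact
Nupr1: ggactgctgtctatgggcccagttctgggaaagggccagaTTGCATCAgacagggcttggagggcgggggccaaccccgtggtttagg
Jdp2: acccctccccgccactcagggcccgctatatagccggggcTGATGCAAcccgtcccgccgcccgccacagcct
Pycr1: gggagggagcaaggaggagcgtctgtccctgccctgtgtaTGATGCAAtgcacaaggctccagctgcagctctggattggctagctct
Got1: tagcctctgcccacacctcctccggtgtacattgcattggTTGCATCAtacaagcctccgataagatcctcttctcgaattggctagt
Aars: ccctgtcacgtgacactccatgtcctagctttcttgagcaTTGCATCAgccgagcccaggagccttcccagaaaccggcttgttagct
Asns: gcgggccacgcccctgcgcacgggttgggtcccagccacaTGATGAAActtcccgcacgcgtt
Their positions are Slc7a11 chr3:50443614-50443719 (minus strand), Chac1 chr2:119351009-119351096 (plus strand), Atf3 chr1:191183396-191183483 (minus strand), Vldlr chr19:27216780-27216867 (plus strand), Nupr1 chr7:126625533-126625620 (minus strand), Jdp2 chr12:85599343-85599415 (plus strand), Pycr1 chr11:120643804-120643891 (minus strand), Got1 chr19:43524660-43524747 (minus strand), Aars chr8:111033690-111033777 (plus strand) and Asns chr6:7693210-7693272 (minus strand). Slc7a11 carries a pair of matches on opposite strands, whose first bases lie 66 and 47 bases before the start. The Asns window holds TGATGAAA, which differs from the searched letters at the free position.

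Of the genes just shown, Slc7a11, which encodes the cystine transporter (chromosome 3, 49892526 to 50443614), stood at 7.47, 61.1 and 65.1 CPM with halofuginone, against 2.74, 3.78 and 3.33 CPM in vehicle. Chac1, an enzyme that breaks down glutathione (chromosome 2, 119351229 to 119354381), stood at 34.2, 113 and 105 CPM with halofuginone, against 26.8, 12.6 and 13.3 CPM in vehicle. The proline synthesis enzyme Pycr1 had 21.7, 58.9 and 58.8 CPM with halofuginone, against 12.8, 8.45 and 9.29 CPM in vehicle. Halofuginone libraries were above vehicle in all 3 genes, with the date-tagged library far below rep2 and rep3. Their log2 fold changes were 4.09 ± 0.11, 3.03 ± 0.088 and 2.69 ± 0.094 (edgeR adjusted p of 4.35e-07 or below), against 1.42, 0.35 and 0.76 in the date-tagged pair. Asns, the asparagine synthetase gene (chromosome 6, 7675169 to 7693254), had 240.0, 436 and 413 CPM with halofuginone, against 218, 178 and 167 CPM in vehicle, a log2 fold change of 1.25 ± 0.074 (adjusted p = 4.12e-06, edgeR) and a date-tagged ratio of 0.14. Among the other genes with a window, Atf3 had a log2 fold change of 3.00 and a date-tagged ratio of 0.89, and Aars, the alanyl-tRNA synthetase gene, had 1.44 and -0.022.

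Counts of list members from here on stand beside 33.1% of all genes that rose and 36.9% that fell. Most genes of the Atf4 circle rose. Of 16 tested, 15 rose and 0 fell, at a median log2 fold change of 2.40, where the median over all genes was -0.024. In the date-tagged pair the median was 0.26, and the effect differed between the sets at 13 of 15, beside 52.1% of all genes. Trib3, a pseudokinase induced by Atf4 (chromosome 2, 152337422 to 152344032), had 29.4, 230.5 and 214 CPM with halofuginone, against 13.3, 14.7 and 13.3 CPM in vehicle. Ddit3, the transcription factor CHOP, had 82.4, 547 and 514 CPM with halofuginone, against 87.4, 47.8 and 60.9 CPM in vehicle, and Ppp1r15a, which returns the phosphatase to eIF2alpha, had 46.7, 409 and 389.9 CPM with halofuginone, against 41.9, 27.8 and 33.2 CPM in vehicle. In Trib3 and Ppp1r15a every halofuginone library was above vehicle, though by little in the date-tagged Ppp1r15a value, and in Ddit3 the date-tagged halofuginone library lay within the range of vehicle. Atf4 itself had 474, 619 and 589 CPM with halofuginone, against 512, 341 and 359 CPM in vehicle, a log2 fold change of 0.74 ± 0.071 (adjusted p = 5.13e-05, edgeR). The date-tagged vehicle library was above vehicle rep2 and rep3 for Atf4 and Ddit3.

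Amino acid transporters rose at 10 and fell at 2 of 15 genes, with a median of 1.76 and a date-tagged median of -0.056. The leucine transporter chain Slc7a5 had 116, 595 and 587 CPM with halofuginone, against 105, 69.7 and 67.7 CPM in vehicle, and the glycine transporter Slc6a9 had 63.9, 237 and 237 CPM with halofuginone, against 50.2, 31.1 and 31.8 CPM in vehicle. Both were highest in halofuginone rep2 and rep3, and the date-tagged halofuginone library was above the 3 vehicle libraries by a small margin. Serine, one-carbon, asparagine and proline synthesis genes rose at 15 of 17 and fell at 0 (median 1.43; date-tagged 0.14). Aldh1l2, a mitochondrial folate enzyme, had 156, 1047 and 1097 CPM with halofuginone, against 88.7, 124 and 121 CPM in vehicle, and Psph, the last enzyme of serine synthesis, had 30.8, 75.9 and 74.6 CPM with halofuginone, against 26.6, 18.8 and 19.4 CPM in vehicle. Their log2 fold changes were 3.08 ± 0.076 and 1.93 ± 0.080 (edgeR adjusted p of 8.16e-07 or below).

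Of 20 cytosolic aminoacyl-tRNA synthetases, 18 rose and 1 fell, with a median of 1.22 and a date-tagged median of 0.042. Eprs, whose product halofuginone binds (chromosome 1, 185363044 to 185428360), had 343, 1075 and 1092 CPM with halofuginone, against 347, 306 and 334 CPM in vehicle. Its date-tagged halofuginone library lay beside date-tagged vehicle, and the change in rep2 with rep3 was 1.71 ± 0.076 (adjusted p = 1.14e-06, edgeR). Wars, for tryptophan, and Yars, for tyrosine, rose by 2.15 ± 0.094 and 1.53 ± 0.084 (edgeR adjusted p of 3.05e-06 or below), with date-tagged ratios of 0.16 and -0.025.

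Protein folding genes split by compartment. In the endoplasmic reticulum 10 of 19 chaperone genes rose and 2 fell, with a median of 0.23, while in the date-tagged pair 0 of 19 were above 0 and the median was -0.47. Hspa5, the main chaperone of that compartment, had 549, 3398 and 3256 CPM with halofuginone, against 939, 736 and 768 CPM in vehicle: the date-tagged halofuginone library was the lowest of the 6 and rep2 and rep3 were the highest. Its log2 fold change was 2.10 ± 0.074 (adjusted p = 4.51e-07, edgeR), the date-tagged ratio was -0.78, and the difference of the effects was -2.92 ± 0.13 (SE; edgeR adjusted p = 6.72e-06). Dnajb9 and Herpud1, which serve degradation from the endoplasmic reticulum, rose by 1.24 ± 0.19 and 1.15 ± 0.075 (edgeR adjusted p of 0.000594 or below). Mitochondrial chaperones and proteases rose at 8 of 10 genes and fell at 0 (median 0.60; date-tagged 0.050). The mitochondrial protease Lonp1 had 338, 665 and 646 CPM with halofuginone, against 198, 171 and 175 CPM in vehicle, without overlap, and rose by 1.88 ± 0.070 (adjusted p = 5.24e-07, edgeR). Cytosolic heat shock genes fell at 8 and rose at 2 of 13 (median -0.86; date-tagged 0.027). The small heat shock gene Cryab had 201, 12.5 and 10.9 CPM with halofuginone, against 245, 96.9 and 115 CPM in vehicle, and the co-chaperone gene Bag3 fell by 1.73 ± 0.089 (log2; edgeR adjusted p = 2.19e-06). Hspa1b, whose reads cannot be cleanly parted from its near copy Hspa1a, had 20.3, 1.09 and 0.453 CPM with halofuginone, against 16.8, 22.2 and 17.6 CPM in vehicle.

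Glutathione and Nrf2 target genes fell at 11 and rose at 5 of 18 (median -0.47; date-tagged 0.076). The microsomal glutathione transferase Mgst1 had 177, 21.3 and 19.7 CPM with halofuginone, against 162, 191 and 172 CPM in vehicle, with halofuginone rep2 and rep3 below all other libraries and a log2 fold change of -3.19 ± 0.092 (adjusted p = 2.07e-07, edgeR). Gstm1 and Gsta4, glutathione transferases of families with close paralogs, had log2 fold changes of -2.53 and -1.90 (edgeR adjusted p of 9.35e-06 or below), while in the date-tagged pair their ratios were 0.32 and 0.55.

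Every mitosis gene tested fell in rep2 with rep3, 25 of 25, with a median log2 fold change of -1.73. In the date-tagged pair their median was 0.024, and 15 of 25 were above 0. Bub1b, a kinase of the spindle checkpoint, had 155, 21.2 and 23.1 CPM with halofuginone, against 138, 113 and 114 CPM in vehicle, and Cenpa, the histone of centromeres, had 171, 26.1 and 25.7 CPM with halofuginone, against 158, 110.1 and 113 CPM in vehicle. In both, halofuginone rep2 and rep3 were far below and the date-tagged library was the highest of the 6. The log2 fold changes were -2.40 ± 0.083 and -2.15 ± 0.075, and -2.72 ± 0.13 for the mitotic cyclin Ccnb2 (edgeR adjusted p of 1.61e-06 or below). Fewer dividing cells and less of these mRNAs per cell cannot be told apart in bulk RNA. DNA replication genes had 8 higher and 11 lower of 25, close to the shares of all genes (33.1% and 36.9%). The licensing factor Cdt1 had 154, 246 and 227 CPM with halofuginone, against 112, 93.1 and 92.1 CPM in vehicle, and Rrm2, a subunit of ribonucleotide reductase, had 154, 80 and 81 CPM with halofuginone, against 190.3, 179 and 166 CPM in vehicle. The groups did not overlap in either gene, with Cdt1 higher and Rrm2 lower with halofuginone, at 1.31 ± 0.074 and -1.15 ± 0.075 (edgeR adjusted p of 6.86e-06 or below).

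Cell cycle entry genes changed in both directions as well, 4 higher and 10 lower of 17 (median -0.37; date-tagged -0.20). The inhibitors of cyclin-dependent kinases Cdkn2c and Cdkn2d had log2 fold changes of -2.69 and -3.22 (edgeR adjusted p of 3.66e-06 or below). Myc, a transcription factor that drives growth, had 85.3, 445 and 429 CPM with halofuginone, against 77.2, 67.1 and 72.5 CPM in vehicle, a rise of 2.60 ± 0.079 in rep2 with rep3 (adjusted p = 2.46e-07, edgeR). Of p53 target genes 14 of 18 rose and 1 fell (median 0.71; date-tagged -0.10). The kinase gene Plk2 had 99.9, 573 and 563 CPM with halofuginone, against 107, 79.5 and 82.8 CPM in vehicle, and the cell cycle inhibitor Cdkn1a had 163, 159 and 155 CPM with halofuginone, against 142, 107 and 119 CPM in vehicle. Cdkn1a rose by 0.43 ± 0.079 (adjusted p = 0.00162, edgeR), and all 3 of its halofuginone libraries were above vehicle. Sesn1 was the member that fell, by 1.94 ± 0.15 (log2; edgeR adjusted p = 1.36e-05).

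Genes for making ribosomes rose at 20 of 21 and fell at 0, with a median of 1.14 and a date-tagged median of 0.065. Nop58, a core protein of box C/D snoRNPs, had 136, 624 and 609 CPM with halofuginone, against 148, 143 and 124 CPM in vehicle, and Dkc1, the pseudouridine synthase of box H/ACA particles, had 63.4, 294 and 279 CPM with halofuginone, against 65.9, 63.5 and 57.4 CPM in vehicle. Rep2 and rep3 with halofuginone were above the other 4 libraries, which overlapped. The log2 fold changes were 2.16 ± 0.087 and 2.19 ± 0.082 (edgeR adjusted p of 7.63e-07 or below). The noncoding RNAs that host snoRNAs in their introns rose at 11 of 11, with a median of 2.21 and a date-tagged median of 0.39. Snhg1 had 67.2, 803 and 764 CPM with halofuginone, against 69, 65.6 and 58.4 CPM in vehicle, Snhg12 had 22.9, 141 and 132 CPM with halofuginone, against 15.4, 12.1 and 10.2 CPM in vehicle, and Zfas1 had 83.1, 366 and 344 CPM with halofuginone, against 62.1, 51.4 and 51.1 CPM in vehicle. The date-tagged halofuginone library was above vehicle for Snhg12 and Zfas1 and within vehicle for Snhg1. Their changes were 3.61 ± 0.089, 3.55 ± 0.10 and 2.75 ± 0.076 (edgeR adjusted p of 2.07e-07 or below).

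Spliced host transcripts of this kind are known substrates of nonsense-mediated decay. Factors of that pathway rose at 10 of 11 (median 0.59; date-tagged -0.052). The kinase gene Smg1 had 101, 392 and 420.3 CPM with halofuginone, against 138, 229 and 179 CPM in vehicle, with the date-tagged halofuginone library the lowest of the 6. Smg9, which controls that kinase, rose by 0.91 ± 0.085 (adjusted p = 4.35e-05, edgeR). Proteasome subunits were the list with the most members that did not pass, with 9 higher, 3 lower and 15 not called of 27, at a median of 0.072. Psmc6 had 109, 206 and 209 CPM with halofuginone, against 109, 119 and 102 CPM in vehicle, and Psmc3 fell by 0.73 ± 0.10 (log2; edgeR adjusted p = 0.000318). Polyamine genes rose at 6 and fell at 4 of 10. Odc1, the first enzyme of polyamine synthesis, had 78.6, 326 and 324 CPM with halofuginone, against 73.8, 69.3 and 68.2 CPM in vehicle, and spermidine synthase, Srm, rose by 1.47 ± 0.077 (adjusted p = 2.36e-06, edgeR). Tubulin genes fell at 10 of 11 and rose at 0 (median -1.14; date-tagged 0.091). Tuba1a had 235, 26.9 and 23.3 CPM with halofuginone, against 265, 234 and 229 CPM in vehicle, and Tubb2a fell by 3.58 ± 0.10 (log2; edgeR adjusted p = 2.07e-07). Tubulin genes share long stretches of sequence, so single members are less certain.

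Of 21 cholesterol synthesis genes 20 fell and 1 rose, with a median log2 fold change of -3.10. In the date-tagged pair the median was -0.44 and 0 of 21 were above 0, among them the member that rose in rep2 with rep3. Nsdhl, a sterol dehydrogenase, had 159, 7.74 and 7.21 CPM with halofuginone, against 247, 199 and 193 CPM in vehicle, and Fdps, which makes farnesyl pyrophosphate, had 35.5, 2.08 and 1.57 CPM with halofuginone, against 46.9, 35.2 and 35 CPM in vehicle. Date-tagged halofuginone lay below all vehicle libraries for Nsdhl and within them for Fdps. The log2 fold change was -4.76 ± 0.088 for Nsdhl (adjusted p = 1.05e-07, edgeR) and -4.31 ± 0.14 for Fdps (adjusted p = 3.73e-07, edgeR), against -0.63 and -0.40 in the date-tagged pair. Tm7sf2, a sterol reductase, was past 2-fold there as well, at -1.14, and fell by 4.51 ± 0.17 in rep2 with rep3 (log2; edgeR adjusted p = 6.34e-07).

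Of 13 genes of SREBP control and sterol uptake 11 fell and 2 rose (median -0.84; date-tagged -0.23). Insig1, which retains SREBP in the endoplasmic reticulum, had 151, 14.7 and 17.1 CPM with halofuginone, against 209.7, 176 and 173 CPM in vehicle, and the sterol carrier Stard4 had 71.2, 10.5 and 9.81 CPM with halofuginone, against 102, 128 and 107 CPM in vehicle. All 3 halofuginone libraries lay below vehicle in both genes, and rep2 and rep3 lay far below. Stard4 had a log2 fold change of -3.58 ± 0.12 (adjusted p = 3.26e-07, edgeR) and Insig1 of -3.50 ± 0.10 (adjusted p = 2.07e-07, edgeR). Fatty acid synthesis and desaturation genes fell at 11 of 14 and rose at 0 (median -0.96; date-tagged -0.41). Scd2, a stearoyl-CoA desaturase, had 1206, 189 and 191 CPM with halofuginone, against 1750.4, 1748 and 1627 CPM in vehicle, and the desaturase Fads2 and the acetyl-CoA synthetase Acss2 had log2 fold changes of -2.33 and -3.48 (edgeR adjusted p of 1.18e-06 or below). Sterol export and LXR target genes fell at 4 and rose at 2 of 7. The cholesterol exporter Abca1 had 26.5, 6.2 and 5.11 CPM with halofuginone, against 31.4, 33.7 and 29.6 CPM in vehicle, while Apoe, the apolipoprotein E gene, went up, with 9.74, 14.3 and 16.2 CPM with halofuginone, against 3.35, 3.31 and 3.28 CPM in vehicle. In Apoe no halofuginone library overlapped vehicle, at 2.16 ± 0.14 in rep2 with rep3 (adjusted p = 7.50e-06, edgeR) and 1.52 in the date-tagged pair.

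Glycolysis genes had opposite median signs in the sets. Of 17 glycolysis and lactate export genes 15 fell and 2 rose in rep2 with rep3, at a median of -1.09. In the date-tagged pair the median was 0.23, and 15 of 17 were above 0. The interaction test called 17 of 17, beside 52.1% of all genes. Pgk1, phosphoglycerate kinase, had 419, 135 and 134 CPM with halofuginone, against 416, 549.7 and 547 CPM in vehicle, and Pdk1, a kinase that closes pyruvate dehydrogenase, had 55, 26.1 and 27.2 CPM with halofuginone, against 47.1, 84.7 and 78.8 CPM in vehicle. For both, vehicle rep2 and rep3 were above date-tagged vehicle, and date-tagged halofuginone lay beside its own vehicle. Changes in rep2 with rep3 were -2.07 ± 0.069 and -1.66 ± 0.082 (edgeR adjusted p of 1.88e-06 or below). Citric acid cycle genes fell at 12 and rose at 2 of 17 (median -0.44; date-tagged 0.046). Pcx, pyruvate carboxylase, had 67.8, 9.42 and 9.4 CPM with halofuginone, against 82, 48 and 56.4 CPM in vehicle, and had a log2 fold change of -2.52 ± 0.11 (adjusted p = 1.18e-06, edgeR).

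Hypoxia-induced genes had no common direction, with 5 higher and 6 lower of 11. Their median of -0.22 turned to 0.057 under a stricter expression filter and to 0.36 with no filter. Ndrg1, which also responds to stress, had 41.2, 205 and 203 CPM with halofuginone, against 28.1, 33.6 and 35.3 CPM in vehicle, and the oxidoreductase gene Ero1l had 53.2, 259 and 269 CPM with halofuginone, against 41.4, 64.2 and 54.7 CPM in vehicle. Both rose, by 2.52 ± 0.075 and 2.10 ± 0.094 (edgeR adjusted p of 1.21e-06 or below), while the mitophagy receptor Bnip3 fell by 1.51 (adjusted p = 9.97e-06, edgeR). Lysosomal genes fell at 20 of 23 and rose at 1 (median -0.60; date-tagged 0.023). The protective protein cathepsin A, Ctsa, had 1001, 238 and 233 CPM with halofuginone, against 985, 606 and 658 CPM in vehicle. Tfeb, the transcription factor of lysosomal genes, had 14.6, 4.03 and 3.13 CPM with halofuginone, against 12.7, 11.3 and 13.3 CPM in vehicle, and fell by 1.82 ± 0.17 (log2; edgeR adjusted p = 4.71e-05). Iron handling genes were mostly not called, with 3 higher, 1 lower and 6 not called of 10. The ferritin chain Fth1 had 5082, 4058 and 3914 CPM with halofuginone, against 4391, 3287 and 3475 CPM in vehicle, at 0.19 ± 0.074 in rep2 with rep3 (adjusted p = 0.0481, edgeR), a call that several other settings did not keep.

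Of 8 fibrillar collagen chains 7 fell and 1 rose, with a median of -1.60 and a date-tagged median of -0.48. Col1a1, the main chain of type I collagen (chromosome 11, 94936224 to 94953042), had 881, 473 and 489.6 CPM with halofuginone, against 1553, 1182 and 1461 CPM in vehicle. Col3a1, the chain of type III collagen (chromosome 1, 45311538 to 45349706), had 38.7, 8.65 and 9.48 CPM with halofuginone, against 46.9, 78.2 and 89.1 CPM in vehicle. Both had all halofuginone libraries below vehicle. The log2 fold change was -1.50 ± 0.11 for Col1a1 (adjusted p = 1.04e-05, edgeR) and -3.25 ± 0.11 for Col3a1 (adjusted p = 3.45e-07, edgeR), and the date-tagged ratios were -0.82 and -0.28. Col1a2, the second chain of type I collagen, had 3534, 1807 and 1831 CPM with halofuginone, against 4554, 3796 and 4526 CPM in vehicle, again without overlap, at -1.24 ± 0.10 (adjusted p = 1.73e-05, edgeR). Other collagens fell at 10 and rose at 2 of 13 (median -1.90; date-tagged -0.36). Col6a1, a chain of the beaded filament collagen VI (chromosome 10, 76708792 to 76726168), had 595, 48.2 and 48.4 CPM with halofuginone, against 771, 690.4 and 748 CPM in vehicle, and Col6a2 fell by 3.07 ± 0.090 (log2; edgeR adjusted p = 2.14e-07).

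Genes that hydroxylate, fold and crosslink collagen fell at 17 and rose at 1 of 20 (median -1.06; date-tagged -0.11). Lox, the crosslinking lysyl oxidase, had 926, 95.9 and 99.5 CPM with halofuginone, against 1881, 1352 and 1085 CPM in vehicle. Its halofuginone libraries all lay below vehicle, with changes of -3.69 ± 0.12 in rep2 with rep3 (adjusted p = 3.12e-07, edgeR) and -1.02 in the date-tagged pair. Adamts2, which trims procollagen, had 56.4, 11.9 and 11 CPM with halofuginone, against 104, 63.5 and 72.8 CPM in vehicle, and P4ha3, a prolyl hydroxylase subunit, fell by 3.53 ± 0.14 (log2; edgeR adjusted p = 8.09e-07). Of 26 matrix glycoproteins and proteoglycans 19 fell and 3 rose (median -1.16; date-tagged -0.40). Thbs1, the thrombospondin 1 gene, had 336, 21.1 and 21.6 CPM with halofuginone, against 621, 267 and 273 CPM in vehicle, so date-tagged halofuginone was above vehicle rep2 and rep3 yet below its own vehicle. Tgfbi had 3.94, 0.181 and 0.412 CPM with halofuginone, against 2.91, 8.28 and 9.18 CPM in vehicle, and the basement membrane linker Nid2 fell by 3.16 ± 0.22 (log2; edgeR adjusted p = 9.82e-06). Hyaluronan genes fell at 7 and rose at 1 of 9 (median -1.28). The synthase Has2 had 3.58, 2.67 and 2.14 CPM with halofuginone, against 6.53, 30 and 26.4 CPM in vehicle, where date-tagged vehicle was already far below vehicle rep2 and rep3. Has2 had a log2 fold change of -3.60 ± 0.15 (adjusted p = 9.09e-07, edgeR).

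Matrix proteases and their inhibitors went both ways, with 8 higher and 7 lower of 16. Their median of 0.30 was not stable. It turned to -0.29 when halofuginone rep2 and rep3 were summed, to -0.33 with no filter and to -0.041 in the interaction fit over 6 libraries. Leaving out halofuginone rep2, halofuginone rep3 or vehicle rep2 also made it negative. In single pairs the medians were -0.016 for rep2, -0.066 for rep3 and -0.37 for the date-tagged pair. Serpine2, an inhibitor of thrombin and plasminogen activators, had 123, 16.3 and 16.5 CPM with halofuginone, against 187, 180.4 and 182 CPM in vehicle, and the tissue plasminogen activator Plat had 48.9, 5.75 and 5.61 CPM with halofuginone, against 69.5, 57.2 and 63.5 CPM in vehicle. Both had all halofuginone libraries below vehicle and had log2 fold changes of -3.51 and -3.45 (edgeR adjusted p of 2.55e-07 or below). The stromelysin Mmp3 fell by 2.54 ± 0.18 (log2; edgeR adjusted p = 9.03e-06), with -0.92 in the date-tagged pair. Integrin and focal adhesion genes fell at 10 and rose at 6 of 18 (median -0.52), where 36.9% of all genes fell and 33.1% rose. The integrin chains Itga1, Itga8 and Itgb3 had log2 fold changes of -2.95, -3.21 and -2.82 (edgeR adjusted p of 7.40e-06 or below).

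Contractile and SRF target genes fell at 10 of 12 and rose at 0 (median -0.70; date-tagged -0.24). Acta2, the smooth muscle actin that marks myofibroblasts (chromosome 19, 34241090 to 34255590), had 374, 33.2 and 33.5 CPM with halofuginone, against 455, 75.5 and 80.4 CPM in vehicle. The date-tagged libraries of both treatments were far above the 4 others, so the groups overlapped. Within rep2 and rep3 Acta2 had a log2 fold change of -1.27 ± 0.078 (adjusted p = 5.22e-06, edgeR), and in the date-tagged pair the ratio was -0.28. Over all 6 libraries its value of -0.47 was not called and turned to 0.91 without date-tagged vehicle. The calponin Cnn2 and the actin Actg1 had log2 fold changes of -1.60 and -1.51 (edgeR adjusted p of 1.93e-06 or below). YAP and TEAD targets rose at 7 and fell at 2 of 12 (median 0.21; date-tagged -0.23). Ctgf, the connective tissue growth factor gene and a target of several pathways, had 47.1, 7.47 and 6.76 CPM with halofuginone, against 37.3, 24 and 23.1 CPM in vehicle, and Ajuba, a LIM protein of cell junctions, had 48.7, 99 and 98 CPM with halofuginone, against 44.9, 31.3 and 29.4 CPM in vehicle. Ctgf fell by 1.77 and Ajuba rose by 1.65 ± 0.078 (edgeR adjusted p of 6.15e-06 or below).

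Signalling lists were mixed. Ligands, receptors and Smads of the TGF-beta pathway rose at 7 and fell at 8 of 16 (median -0.53; date-tagged -0.064). The ligand Tgfb3 had 70.6, 12.2 and 12.2 CPM with halofuginone, against 71.8, 56.3 and 57.2 CPM in vehicle, the ligand Tgfb2 fell by 1.42, and Ltbp2, a relative of the latent TGF-beta binding proteins, fell by 2.14 (edgeR adjusted p of 0.000104 or below). BMP genes rose at 5 and fell at 4 of 12, near the shares of all genes (33.1% and 36.9%), and their median of 0.093 reached 0 without vehicle rep3. Id3, a target of BMP signalling, had 128, 35 and 32.9 CPM with halofuginone, against 85.3, 77.8 and 85 CPM in vehicle. Id3 fell by 1.31 ± 0.084 (log2; edgeR adjusted p = 6.36e-06), and the date-tagged halofuginone library was the highest of the 6. Wnt genes fell at 9 and rose at 4 of 14 (median -1.18; date-tagged -0.12). Wisp2, a secreted protein induced by Wnt, had 199, 1.77 and 2.6 CPM with halofuginone, against 287, 117 and 131 CPM in vehicle. Dkk3, of the Dickkopf family, had 28.3, 0.77 and 1.03 CPM with halofuginone, against 42.9, 43.2 and 48.3 CPM in vehicle, and the secreted antagonist Sfrp1 had 30.4, 4.17 and 3.26 CPM with halofuginone, against 57.3, 89.9 and 88.3 CPM in vehicle. Their log2 fold changes were -5.86 ± 0.15, -5.69 ± 0.16 and -4.64 ± 0.12 (edgeR adjusted p of 2.07e-07 or below).

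Growth factors and receptor kinases rose at 7 and fell at 12 of 19, where 33.1% of all genes rose and 36.9% fell. Their median was -0.63, and -0.30 in the date-tagged pair. Hbegf, a ligand of the EGF receptor, had 3.13, 21.1 and 20.9 CPM with halofuginone, against 3.07, 2.34 and 2.35 CPM in vehicle. Hgf, the ligand of Met, had 21.2, 7.83 and 6.97 CPM with halofuginone, against 24.9, 57.4 and 51.8 CPM in vehicle, and the heparin-binding factor Ptn had 6.48, 0.136 and 0.0824 CPM with halofuginone, against 9, 5.73 and 5.58 CPM in vehicle. Hbegf rose by 3.12 ± 0.13 and Hgf fell by 2.93 ± 0.11 (log2; edgeR adjusted p of 9.47e-07 or below), and Ptn was low in halofuginone rep2 and rep3 alone. Genes of the insulin-like growth factor axis fell at 8 and rose at 2 of 12 (median -0.66). Irs1, the adaptor of the insulin receptor, had 43.3, 16.7 and 18.9 CPM with halofuginone, against 51.3, 70.1 and 64.8 CPM in vehicle, and the binding protein Igfbp4 had 7.61, 20 and 18.5 CPM with halofuginone, against 4.77, 4.46 and 4.76 CPM in vehicle. Semaphorins, slits, ephrins and netrins fell at 12 and rose at 6 of 20 (median -0.44), the latter near the 33.1% of all genes. Sema3c stood at 6.66, 2.85 and 3.92 CPM with halofuginone, against 12.1, 20.6 and 20.8 CPM in vehicle. No halofuginone library of Sema3c, Irs1 or Igfbp4 overlapped vehicle.

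Immediate early and MAP kinase feedback genes rose at 6 and fell at 9 of 22 (median -0.13; date-tagged 0.059), shares not far from the 33.1% and 36.9% of all genes. Jun, a subunit of AP-1, had 148, 42.8 and 40 CPM with halofuginone, against 132, 151 and 162 CPM in vehicle, and fell by 1.96 ± 0.079 (log2; edgeR adjusted p = 7.29e-07). The phosphatase Dusp5 and the inhibitor Spry2, which both damp ERK signalling, rose by 1.88 ± 0.11 and 1.38 ± 0.083 (edgeR adjusted p of 4.47e-06 or below). Circadian clock genes rose at 10 and fell at 3 of 17 (median 0.75; date-tagged 0.10). The nuclear receptor Nr1d1, a repressor in the clock, had 39.7, 192 and 176 CPM with halofuginone, against 49.6, 37.8 and 37.8 CPM in vehicle, and Ciart, another repressor, had 3.76, 13.3 and 12.7 CPM with halofuginone, against 2.47, 2.55 and 3.17 CPM in vehicle. Hlf, a transcription factor under clock control, had 11.1, 1.45 and 0.907 CPM with halofuginone, against 11.4, 8.66 and 6.12 CPM in vehicle, and fell by 2.71 (adjusted p = 7.46e-05, edgeR), while Nr1d1 rose by 2.24 ± 0.079 and Ciart by 2.15 ± 0.16 (edgeR adjusted p of 1.17e-05 or below).

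Of 14 interferon response genes 13 fell and 0 rose (median -2.67; date-tagged -0.19). The GTPase gene Gbp2 had 15.2, 0.906 and 0.907 CPM with halofuginone, against 16.4, 20.5 and 20.8 CPM in vehicle, and Stat2, which carries the interferon signal to the nucleus, had 39.2, 6.7 and 7.13 CPM with halofuginone, against 48.4, 37.5 and 41 CPM in vehicle. Halofuginone rep2 and rep3 were far below the other 4 libraries in both, at -4.55 ± 0.16 and -2.55 ± 0.11 (edgeR adjusted p of 9.58e-07 or below). Complement and acute-phase genes fell at 11 of 11, at a median of -4.75, the lowest of the 47 lists, against -0.20 in the date-tagged pair. Hp, the haptoglobin gene (chromosome 8, 109575128 to 109579172), had 101, 0.181 and 0.206 CPM with halofuginone, against 109, 88.3 and 106 CPM in vehicle. The complement protease C1s1 had 456, 14.4 and 17.4 CPM with halofuginone, against 711, 511 and 555 CPM in vehicle, and Serpina3g, one of a cluster of close paralogs, had 56.5, 2.31 and 1.2 CPM with halofuginone, against 71.8, 88 and 86.9 CPM in vehicle. Hp fell by 8.97 ± 0.20 (log2; edgeR adjusted p = 1.27e-07), a change that was near 0 in the date-tagged pair (-0.11). Chemokines, cytokines and NF-kappaB targets fell at 11 and rose at 4 of 16 (median -1.24; date-tagged -0.24). Cxcl12, the chemokine that binds Cxcr4, had 83.7, 3.58 and 3.55 CPM with halofuginone, against 128, 58.7 and 64.3 CPM in vehicle, and the neutrophil chemokine Cxcl5 had 149, 19.2 and 17.9 CPM with halofuginone, against 190.1, 265 and 205 CPM in vehicle. The alarmin Il33 had 0.725, 2.17 and 1.98 CPM with halofuginone, against 0.494, 28.2 and 24.3 CPM in vehicle, so the date-tagged vehicle library held far less of it than vehicle rep2 and rep3.

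**Figure D4:**
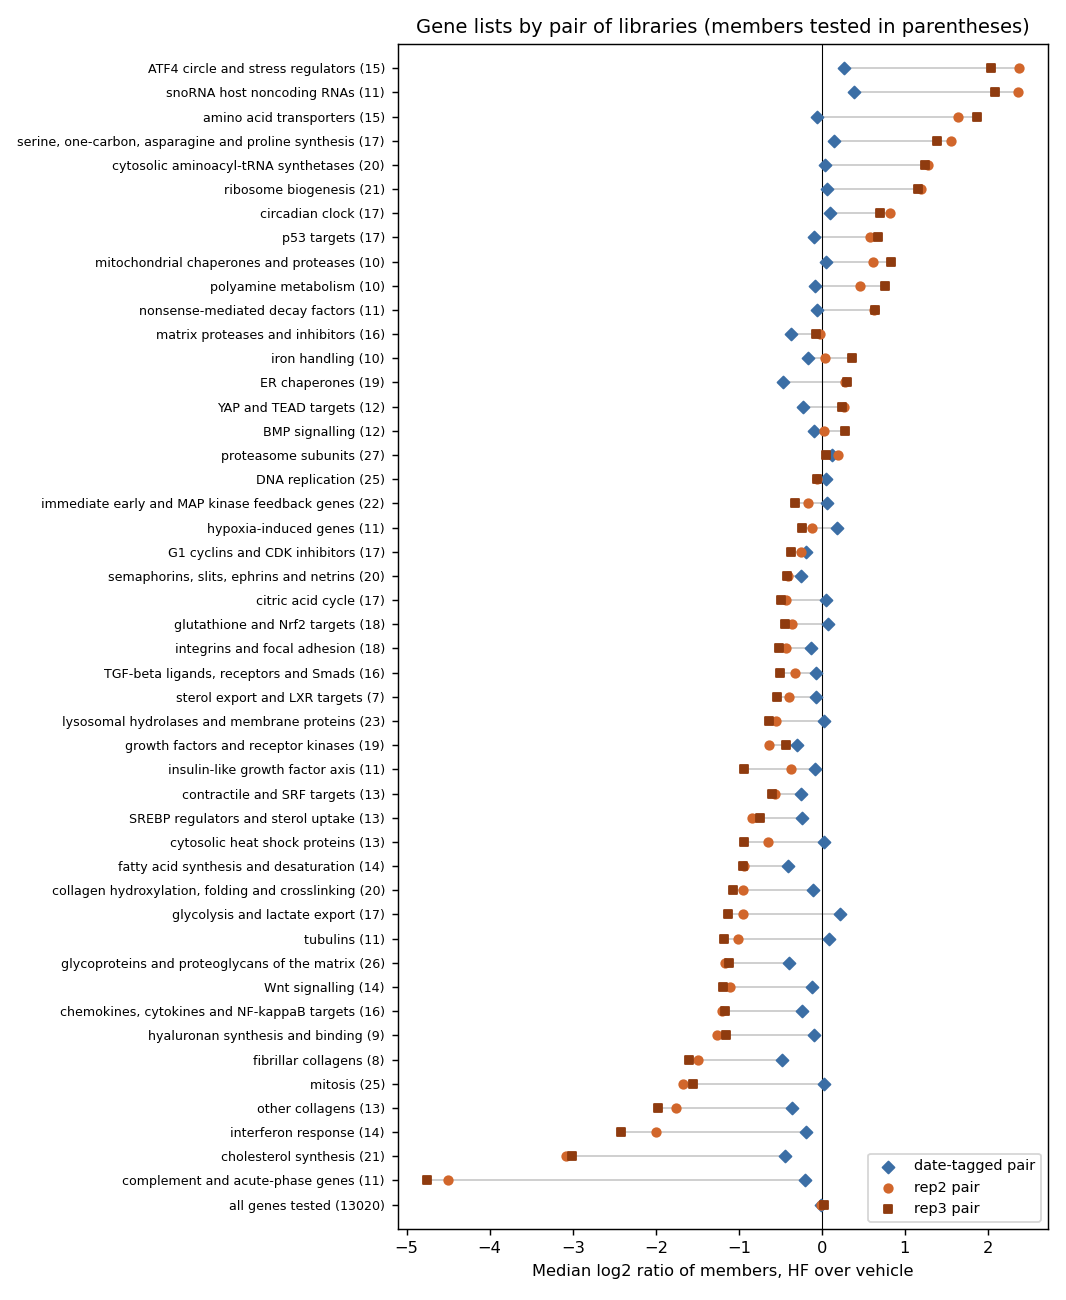
Median log2 ratio of halofuginone (HF) over vehicle for the members of 47 gene lists (y axis, members tested in parentheses) in the date-tagged, rep2 and rep3 pairs. Lists are ordered by the median log2 fold change of the rep2 with rep3 fit. The rep2 and rep3 medians run from 2.36 and 2.09 for snoRNA host RNAs and 2.37 and 2.04 for the ATF4 circle to -4.50 and -4.75 for complement genes, while the date-tagged medians lie between -0.48 and 0.38.

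**Figure D5:**
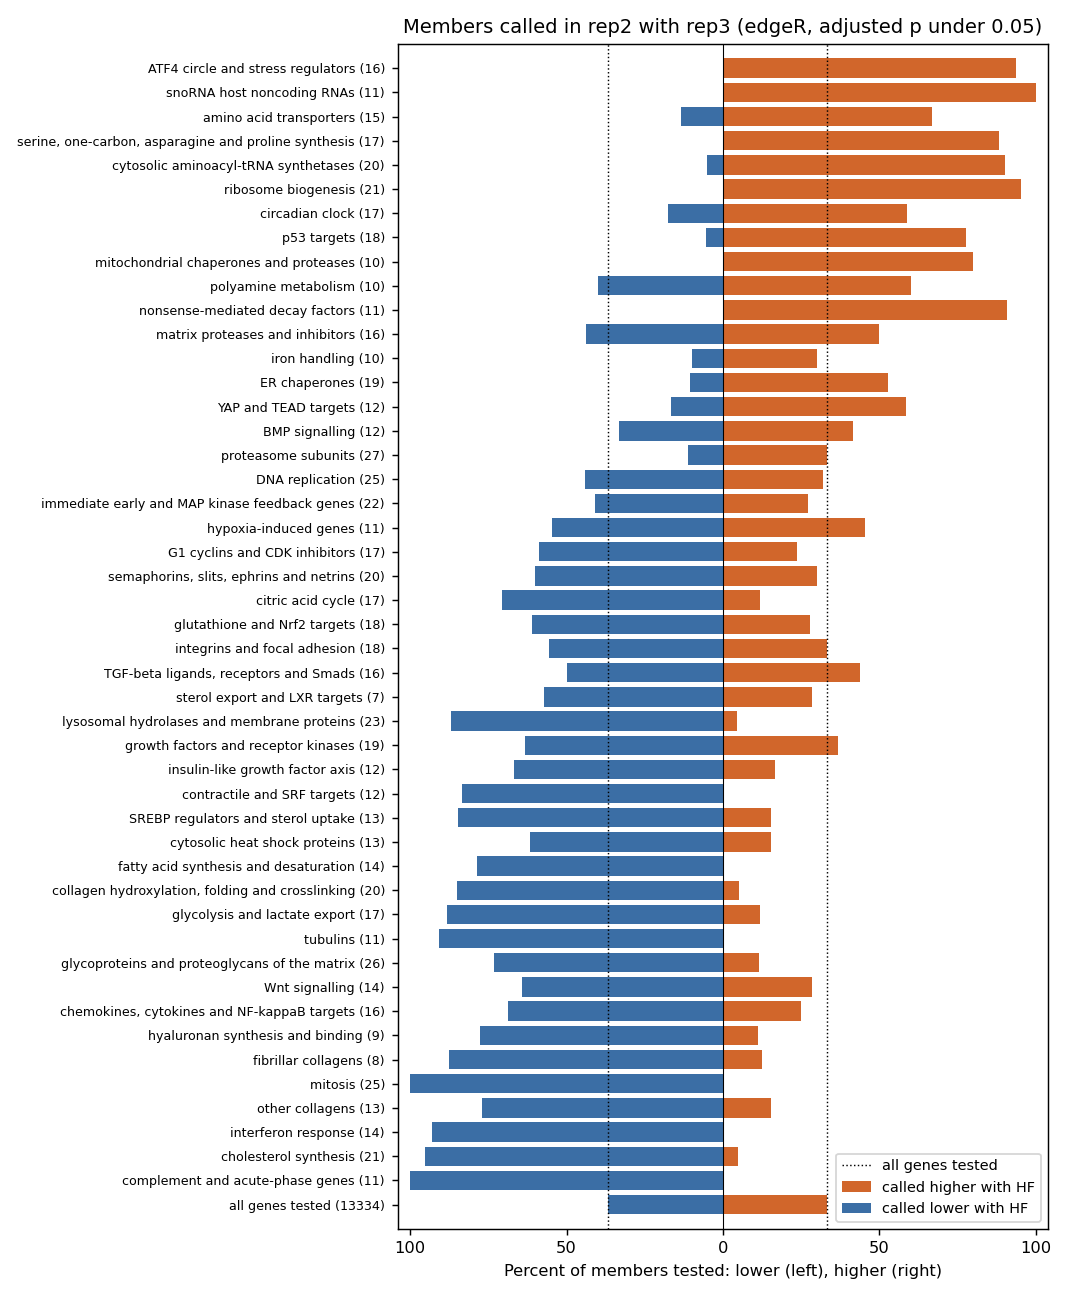
Percent of the tested members of each list called higher (right) and lower (left) with halofuginone (HF) in rep2 with rep3, with dotted lines at the shares among all 13334 genes (33.1% and 36.9%). All snoRNA host members are on the right, all mitosis and complement members are on the left, and proteasome subunits, BMP genes and iron handling genes lie near the dotted line on the right.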

How the data were processed

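Total RNA was measured as counts per gene symbol in 6 libraries. The authors deposited 1 table of whole-number counts, not normalized. The submitters' processing notes name STAR 2.5.2b, featureCounts, Subread 1.5.0p3, Trimmomatic 0.36 and, as build, GRCm38.p5. Per the labels' protocols, the kit was TruSeq Stranded mRNA, which selects polyadenylated RNA, and libraries ran on a HiSeq2500 instrument. Strand setting and multi-mapped reads are not described in the sources used here, so overlapping genes and close paralogs are less certain. The table's other 18 columns, from polysome pools, were not used. Headers matched each library to its group, not to a single sample record.

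From these counts, R 4.3.3 with edgeR 4.0.16 (limma 3.58.1) gave TMM-scaled CPM, quasi-likelihood tests after edgeR's default expression filter, and Benjamini-Hochberg adjustment over all genes tested, with calls at an adjusted p under 0.05. Log2 ratios of single pairs used a prior count of 2, and that scale understates the change of genes with low counts. Errors of fold changes are standard errors. Alternatives were median-of-ratios factors, DESeq2 1.42.0, a filter at 5 CPM or none, each library left out, the tag as a replicate block, the set as a covariate, and halofuginone rep2 and rep3 summed. Of 49568 gene symbols, 47313 matched GENCODE M21 (GRCm38), the source of coordinates. Ddit3 is annotated more than once there and has none.

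Named genes followed a rule. Genes chosen by size of change had a mean of 5 CPM or more in a group. Predicted genes, Riken clones and pseudogenes were left out here. The 12 higher and 12 lower genes with the largest smallest ratio over the 3 pairs came from those called in rep2 with rep3. For these the groups also had to be without overlap. All genes with a called difference between the sets and changes of 2-fold or more, opposite between the date-tagged pair and both other pairs, were taken. Last came the 5 on each side with the largest change in rep2 with rep3, among genes called there and between the sets. Their date-tagged log2 ratio was within 0.1 of 0. To these were added a set of preset genes and up to 3 called members of each list. Atf3 and Aars are named for their promoters, and marker genes for the check of cell types. Some genes under the rule are not reported here. The groups, 47 gene lists (809 genes), 7 marker lists and the rule were chosen with earlier results of these data known. Depth was 17517995 to 24970047 counts per library.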

Additional observations from a re-analysis of the deposited data

Results flagged for a closer look

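The halofuginone effect differed between the date-tagged pair and rep2 with rep3 at 6781 genes by edgeR's interaction test, at an adjusted p under 0.05. The date-tagged halofuginone library differed in its header from the others by a date and by a dose of 50 nM, against 100 nM in the labels, and the part of each in this difference was not tested.

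For 3 genes at a mean of 5 CPM or more in a group, the date-tagged pair was opposite to both other pairs, each past 2-fold. The interaction test also called them, and predicted genes, Riken clones and pseudogenes were left out. Ngef differed by 4.23 on the log2 scale (date-tagged pair minus rep2 with rep3), Kbtbd8 by -2.84 and Ifrd1 by -3.13.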

How the results depend on the processing

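The 3 against 3 comparison gave 0 calls under median-of-ratios factors, without a filter, with a stricter filter, with halofuginone rep2 and rep3 summed and with the tag as a replicate block. It gave 515 calls with DESeq2 and 6 with the set as a covariate, and between 0 and 8246 when each library was left out, the highest without the date-tagged halofuginone library. The cause was not tested. The count of 9337 in rep2 with rep3 ranged from 7360 to 10233 and the 6781 of the interaction test from 4558 to 8803 over all alternatives. Correlation could not decide whether the tags pair the libraries. Deviations from a mean of 3 libraries sum to 0, and halofuginone rep2 and rep3 lay close together and far from the date-tagged library. Their deviations thus nearly coincided and opposed those of date-tagged halofuginone. Same-tag deviations from group means correlated across genes at 0.30, 0.35 and -0.0081. Halofuginone rep3 correlated with vehicle rep2 at 0.38. Date-tagged halofuginone correlated with vehicle rep2 at -0.38 and with vehicle rep3 at 0.013. With the replicate block rep2 with rep3 gave 9128 calls and the interaction 6658. The 391 genes past 2-fold in the date-tagged pair fell to 131 with a prior count of 10 and to 49 with the stricter filter, which drops genes of low counts. Over all 6 libraries Acta2 had a log2 fold change of -0.47, which was 0.0014 with halofuginone rep2 and rep3 summed, and between -2.62 and 0.91 when each library was left out (0.0016 without halofuginone rep2). Leaving out 1 library of rep2 or rep3 assumes that the lone sample varies like the other group. Of 1977 recomputed values of 180 genes in rep2 with rep3, 1963 kept direction and call, and the other 14 were Fth1 and Slc39a14, which lost the call. Among list medians 3 changed sign under some setting, for BMP, hypoxia and protease genes. Depth limits genes near 0 counts, such as Als2cl, Taf7l, Sspo and Cd33.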
